A study of Mus musculus with 20 samples.

Results

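The 8 genes described here, Cpt1a, Acadm, Angptl4, Pdk4, Fabp1, Fabp2, Plin2 and Ppara, belong to the handling of fatty acids as fuel. They were taken by symbol, all transcripts of a symbol were added up, and they made up 8 of the 35240 gene symbols in the deposited table. The set is labelled fatty acid oxidation and ketogenesis, but none of the 8 encodes an enzyme of the ketone pathway. A list of ketone genes was therefore read beside them. Of the 8 genes, 5 had a mean level of at least 1 and entered the tests. Pdk4, Ppara and Fabp1 lay below that limit and are given as values only.

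The cultures were colonic organoids (colonoids), which are hollow epithelial structures grown from colonic crypts in Matrigel under IntestiCult medium. They came from WT (C57BL/6) mice and from mice that lack Tnfr2 in the whole body (Tnfr2-/-), and both sets had been through 5 passages before the cultures were filtered and seeded. RNA was taken on days 1, 2 and 3 and again on days 5 and 7 after passage (DPP, days post-passage), with 2 mice per genotype, so that each genotype had 10 libraries and each genotype and day had 2. Early means 1 to 3 DPP (6 libraries per genotype) and late means 5 and 7 DPP (4 libraries per genotype). The replicate number of a library was read as its mouse, so that the 5 libraries of a number are taken as repeated samples of 1 animal. The cultures also held fibroblasts.

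Levels are TPM, a share of all transcripts that takes transcript length into account, divided by a size factor for each library. Fold changes are differences of log2(level + 1), each with its standard error (SE) and a Benjamini-Hochberg adjusted p from limma over the 13539 genes tested. A gene is said to rise, fall or differ when that adjusted p was under 0.05. The level of Tnfrsf1b, the gene that encodes TNFR2, was 11.1 to 21.9 in the WT libraries and 2.71 to 11.5 in the Tnfr2-/- libraries, so that the ranges overlapped: the library labelled 7 DPP of Tnfr2-/- mouse 2 (11.5) lay above the lowest WT library (11.1). The epithelial genes Epcam (362 to 1885) and Krt8 (3463 to 6607) were high in every library. The summed level of 10 fibroblast markers was 1242 to 4051 in late WT libraries and 3728 to 8594 in late Tnfr2-/- libraries. In bulk libraries such as these, fewer cells of a type and less RNA per cell cannot be told apart. Genes of mature colonocytes were uneven, with Krt20 at 75.1 to 550 and Car1 at 0.974 to 789. Slc26a3, Car4, Aqp8 and Slc37a2 averaged only 0.52 to 1.56, and Ms4a18 was listed at 0 throughout.

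Long-chain fatty acids enter mitochondria through carnitine palmitoyltransferase 1, which is encoded in most tissues by Cpt1a, and are then shortened by chain-length specific dehydrogenases, of which Acadm encodes the medium-chain enzyme. The nuclear receptor encoded by Ppara binds fatty acids and, with a retinoid X receptor, switches on genes of this pathway. Among its known targets are Cpt1a, Acadm, Pdk4, Angptl4, Plin2 and the binding protein gene Fabp1. Colonocytes near the surface of the crypt burn short-chain fatty acids made by bacteria.

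The order of the mean levels over the 20 libraries was Plin2 at 274.8 ± 57.6 (SD), Acadm at 61.3 ± 21.4, Angptl4 at 32.3 ± 11.6, Cpt1a at 29.5 ± 9.83, Fabp2 at 1.02 ± 1.03, Ppara at 0.590 ± 0.641, Pdk4 at 0.339 ± 0.649 and Fabp1 at 0. Plin2 stood apart, since its lowest library (177.1) lay above the highest library of Acadm (126.4). Angptl4 and Cpt1a overlapped almost wholly, and so did Fabp2, Ppara and Pdk4. The receptor gene of the set and the 2 binding proteins were thus at or near the floor of the measurement, while the lipid droplet coat and the 2 oxidation enzymes were well above it.

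**Figure D1:**
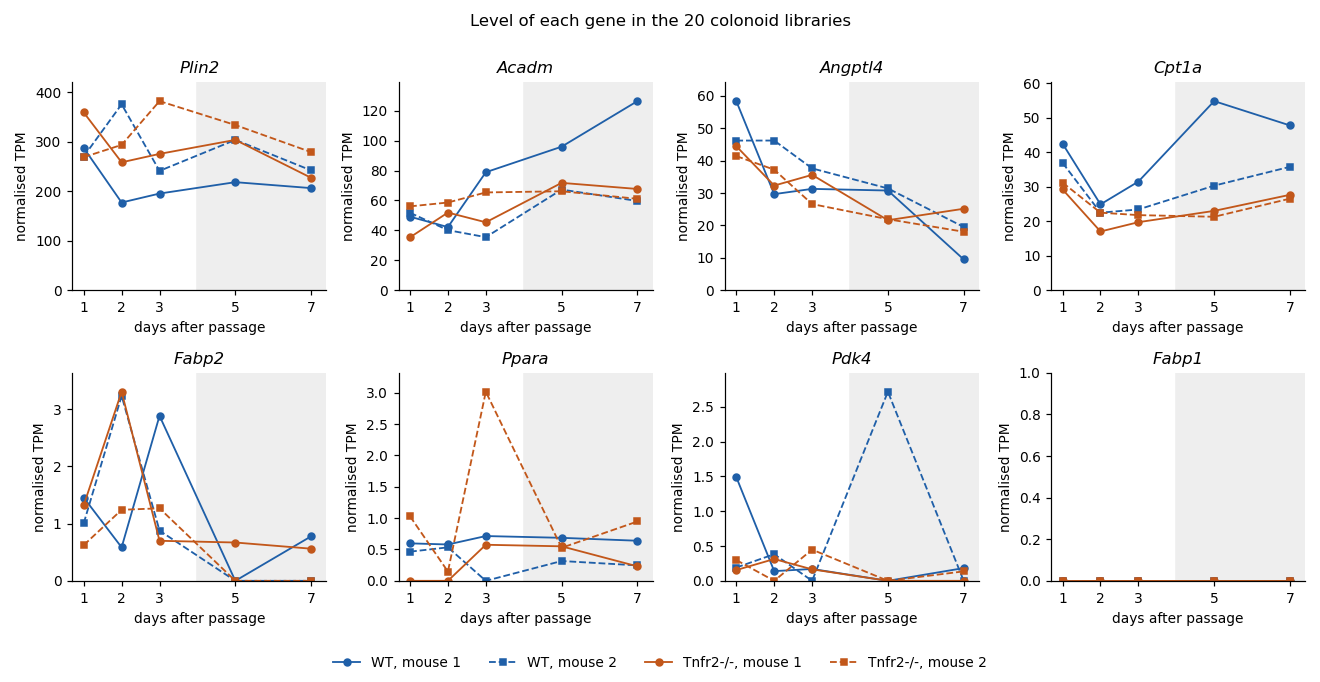
Level of each of the 8 genes (normalised TPM, linear axis from 0, scaled per gene) against days after passage, with 1 line per mouse (blue for WT, orange for Tnfr2-/-) and late days shaded. Angptl4 is lower at 7 than at 1 DPP in all 4 mice, Cpt1a of WT mouse 1 separates upwards at 5 DPP, and Fabp1 lies at 0 throughout.

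Promoters were searched for the pattern to which the receptor and its partner bind, to show which of the genes carry it close to their start. The pattern AGGTCANAGGTCA, which is the same 6 letters repeated after a gap of 1 base, was looked for on both strands with up to 2 mismatches in windows of 300 bases (250 before the start and 50 from it on) from RefSeq on GRCm38.p6. Promoter entries were matched for 7 of the 8 genes, without Angptl4. A match was found in 2 of the 7, against 3.86% of the 32851 promoters in that collection. The 2 are printed with the match in capitals, which lies on the opposite strand in both.
Fabp1: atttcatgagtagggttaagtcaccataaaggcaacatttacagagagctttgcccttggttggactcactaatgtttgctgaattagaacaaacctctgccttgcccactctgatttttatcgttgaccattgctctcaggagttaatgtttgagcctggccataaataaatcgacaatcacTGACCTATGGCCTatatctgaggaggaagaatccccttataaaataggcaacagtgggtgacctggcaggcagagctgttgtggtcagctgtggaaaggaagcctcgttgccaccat
Plin2: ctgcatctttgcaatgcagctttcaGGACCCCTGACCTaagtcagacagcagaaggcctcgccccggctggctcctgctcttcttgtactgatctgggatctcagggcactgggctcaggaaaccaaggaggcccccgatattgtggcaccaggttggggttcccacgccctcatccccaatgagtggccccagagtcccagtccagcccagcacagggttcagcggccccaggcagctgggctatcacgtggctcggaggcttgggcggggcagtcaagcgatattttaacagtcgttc
The Fabp1 window is chr6:71199629-71199928 on the plus strand, and its match differs from the pattern at 1 base and has its first base at position -67 from the start. It also holds the letters TATAAA in the 50 bases before the start, as did 2.63% of all promoters. The Plin2 window is chr4:86670010-86670309 on the minus strand, and its match differs at 2 bases and has its first base at position -225. The gene with the closest match was thus listed at 0 in these cultures, and the gene with the other match had the highest level of the set. A match in letters is not a measured binding site, and Cpt1a, Acadm, Pdk4, Fabp2 and Ppara had none in this window.

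Cpt1a, the carnitine palmitoyltransferase gene (chromosome 19, 3322334 to 3385733, plus strand, GRCm38), was the only 1 of the 5 tested genes that differed between the genotypes. In late WT cultures its level was 54.9 and 47.8 in mouse 1 (5 and 7 DPP) and 30.3 and 35.8 in mouse 2. In late Tnfr2-/- cultures it was 23.0 and 27.7 in mouse 1 and 21.3 and 26.6 in mouse 2. All 4 late Tnfr2-/- libraries lay below all 4 late WT libraries. The late difference was -0.72 on the log2 scale (SE 0.177, adjusted p = 0.0285, limma), which is 0.606 of the WT level. Among all genes tested, 6.45% passed late (3.8% up in Tnfr2-/- and 2.64% down), and of the 5 tested members 1 did.

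At the early days the 6 WT values of Cpt1a ran from 22.5 over a median of 28.2 to 42.5, and the 6 Tnfr2-/- values from 17.0 over 22.1 to 31.2. The ranges overlapped, and the early difference of -0.34 (SE 0.144, adjusted p = 0.334) did not pass the test. None of the 5 members passed it at the early days by limma, where 1.2% of all genes did, and Cpt1a alone had an unadjusted p under 0.05 (0.0346). Over all 5 days, with day as a factor, the Tnfr2-/- level of Cpt1a was lower, with a difference of -0.49 (SE 0.111, adjusted p = 0.0124), against a background of 7.6% of genes called, 4.51% higher and 3.09% lower. The change of the genotype difference from early to late, -0.38 (SE 0.228, adjusted p = 0.544), did not pass the test, and 0.148% of all genes did in that comparison. None of the 5 members had an unadjusted p under 0.05 there, Cpt1a having the lowest at 0.115.

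The WT mice differed, since the Cpt1a level of mouse 1 exceeded that of WT mouse 2 on 5 of 5 days (mean 40.3 against 29.8). The mouse means of Tnfr2-/- were 23.3 and 24.7, below both. The late call was lost in 9 of 24 fits that left out a library or a mouse, which were those without WT mouse 1 at 5 or at 7 DPP, without any of the 4 late Tnfr2-/- libraries, and without WT mouse 1 or either Tnfr2-/- mouse on every day. Without WT mouse 1 the late difference was -0.41 (adjusted p = 0.156) and the difference over all days -0.29 (adjusted p = 0.0817). With the mean of each mouse as the unit, 2 against 2, the Cpt1a differences did not pass (adjusted p = 0.337 at the late days and 0.409 over all days).

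Within WT, the late to early ratio of Cpt1a was 1.38 (from log2(level + 1)), with 2 of 4 late libraries above every early one. That difference of 0.47 (SE 0.161) had an adjusted p of 0.0563, and with the mouse as a replicate block, which compares the days within each mouse, the adjusted p was 0.0148. The course was not a steady climb, since day 1 (42.5 and 36.9) was higher than day 2 (24.9 and 22.5) in both WT mice, and likewise in both Tnfr2-/- mice (29.2 and 31.2, then 17.0 and 22.5). Within Tnfr2-/-, late and early differed by 0.08 (SE 0.161, adjusted p = 0.766). Cpt1b, the muscle form of the enzyme, lay between 0 and 8.51 and passed neither test within a genotype (1.25 in WT, adjusted p = 0.0898, and 0.49 in Tnfr2-/-, adjusted p = 0.535). The WT value of Cpt1b passed with a pseudocount of 5 (adjusted p = 0.0397, limma). It also passed without Tnfr2-/- mouse 1 or mouse 2 at 5 DPP, where the WT value was unchanged and only the shared spread differed. The Tnfr2-/- value of Cpt1b passed without mouse 1 at 5 DPP (1.24).

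Levels were set beside those of markers for cell types. Over the 20 libraries of 4 mice, Pearson's r between log2 Cpt1a and the log2 summed level of the 10 colonocyte markers was 0.854, and for Acadm it was 0.762, while for Angptl4, Fabp2 and Plin2 it was -0.47, -0.36 and -0.39. With the fibroblast markers the r of Cpt1a was -0.48, and with the epithelial markers -0.49. Libraries of the same mouse or day are among the 20, and the values are a description. The colonocyte sum mostly followed Krt20, Car1 and Cdhr5, with means of 264.2, 100.1 and 61.0. The other colonocyte markers averaged at most 5.16. The marker sum was 360 to 1247 in late WT libraries and 381 to 447 in late Tnfr2-/- libraries. In the late genotype comparison 1 of 8 tested colonocyte markers was lower and none was higher, beside 2.64% and 3.8% of all genes. Of the 8, 7 had a negative sign (median -1.09, against -0.05 over all genes). The called marker was Car1, a carbonic anhydrase gene, at 130.1 to 789.3 in late WT and 6.14 to 20.4 in late Tnfr2-/- libraries. The part of these markers in the Cpt1a difference was not tested. The 3 genes most alike to Cpt1a across the 20 libraries were 5330417C22Rik (r = 0.878), Mat2b (0.870) and Rep15 (0.851).

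Acadm, which encodes medium-chain acyl-CoA dehydrogenase (chromosome 3, 153922357 to 153944632, minus strand), rose with time in WT. The 6 early WT values ran from 35.5 over a median of 45.7 to 78.9. The 4 late values were 95.9 and 126.4 in mouse 1 and 67.3 and 59.6 in mouse 2. Both late values of mouse 1 lay above every early value. Those of mouse 2 lay above its own 3 early values (51.8, 40.1 and 35.5) and below the highest early value of mouse 1. Acadm rose by 0.79 (SE 0.240, adjusted p = 0.0343, limma), or 1.73-fold, at the late days in WT, in a comparison that called 20.1% of all genes (11.6% as higher, 8.52% as lower).

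In Tnfr2-/-, Acadm ran from 35.4 over 54.0 to 65.4 at the early days and was 71.8, 67.7, 66.1 and 61.1 at the late days. There 3 of 4 late libraries lay above every early library, but the difference of 0.37 (SE 0.240, adjusted p = 0.313) did not pass the test. The genotypes did not differ in Acadm at any stage by the test (-0.07 over all days, adjusted p = 0.83, and -0.32 late, adjusted p = 0.502), and the late minus early genotype effect was -0.42 (SE 0.340, adjusted p = 0.662). The WT rise therefore cannot be called different from the course in Tnfr2-/-. The call was lost in 10 of 24 fits that left out a library or a mouse, namely WT mouse 1 at 1, 2, 5 or 7 DPP, WT mouse 2 at 1, 2 or 3 DPP, and WT mouse 1 or either Tnfr2-/- mouse on every day. Without a Tnfr2-/- mouse the WT value stayed at 0.79, since such fits change only the spread that all libraries share. The rise also did not pass with no filter on low values (adjusted p = 0.0631, limma) or with only the 10 WT libraries in the fit (0.118). Without WT mouse 1, the rise in WT was 0.58 with an adjusted p of 0.159.

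Part of the Acadm sum came from fragments. The main coding transcript (2047 bases, 12 exons) held 52.7% of the level, while a 323-base transcript annotated as a retained intron held 25.4%. A short transcript reaches a high TPM from few reads, and the mean of the short one, 15.5 TPM, came to about 3.78 reads, against 123.1 reads for the coding one. The short transcript averaged 9.29 in early and 29.8 in late WT libraries, and the coding one 28.0 and 41.4. With the longest coding transcript alone, the WT rise was 0.52 (adjusted p = 0.0433). The genes most alike to Acadm were Ifi27l2b and 2810459M11Rik (r = 0.888 each) and Casp1 (0.880).

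Angptl4 encodes a secreted inhibitor of lipoprotein lipase (chromosome 17, 33773750 to 33781830, minus strand). It fell from early to late in both genotypes. Its 6 early WT values ran from 29.7 over a median of 41.9 to 58.4, and its late WT values were 30.8 and 9.51 in mouse 1 and 31.4 and 19.5 in mouse 2. In Tnfr2-/- the early values ran from 26.6 over 36.4 to 44.5, and the late values were 21.6 and 25.2 in mouse 1 and 21.9 and 18.1 in mouse 2. All 4 late Tnfr2-/- libraries lay below all 6 early ones, while in WT both 7 DPP libraries did and both 5 DPP libraries did not.

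On the log2 scale Angptl4 fell by 0.93 in WT (SE 0.189, adjusted p = 0.00451) and by 0.71 in Tnfr2-/- (SE 0.189, adjusted p = 0.0179). Of all genes, 20.3% were called in Tnfr2-/-, 10.4% higher and 9.93% lower. Without Tnfr2-/- mouse 1 only 2 of all genes passed in that comparison, and without mouse 2 only 3. The falls did not differ by the test (0.23, SE 0.267, adjusted p = 0.785), and neither the early (-0.17, adjusted p = 0.738) nor the late (0.05, adjusted p = 0.909) genotype difference passed it. The WT fall passed in 24 of 24 fits that left out a library or a mouse, and the Tnfr2-/- fall in 18 of 24, with adjusted p = 0.0518 to 0.3217 without mouse 1 at 3 or 5 DPP, mouse 2 at 5 or 7 DPP, or either Tnfr2-/- mouse on every day.

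Most of the Angptl4 level was assigned to a transcript that is not annotated as coding. A 1859-base transcript annotated as subject to nonsense-mediated decay (the removal of transcripts with an early stop) held 83.6% of the sum, and the coding transcript of 3308 bases held 9.14%. The 2 have 7 exons each and share exons 2, 4, 5 and 6 base for base. Exon 3 differs by 4 bases, exon 1 by 287 bases and the last exon by 1158 bases (1819 against 661). The coding transcript averaged 4.35 in early and 2.37 in late WT libraries, and with it alone the WT fall was -0.59 (adjusted p = 0.0702) and the Tnfr2-/- fall -0.53 (adjusted p = 0.101). The genes most alike to Angptl4 were Nol10 and Mrps17 (r = 0.896 each) and Dnajb11 (0.893).

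**Figure D2:**
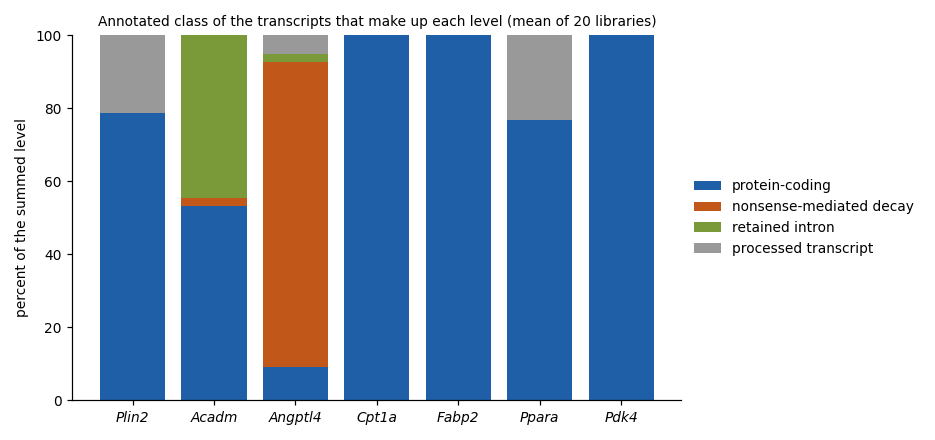
Share of the summed level of each gene (percent, mean of 20 libraries) by annotated class of its transcripts, for the 7 genes with a level above 0. Cpt1a, Fabp2 and Pdk4 are wholly protein-coding, Acadm is 53.1% protein-coding and Angptl4 9.14%.

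Plin2, which encodes the coat protein of lipid droplets (chromosome 4, 86648386 to 86670060, minus strand), had the highest level of the set and passed the test in none of the 6 comparisons. Early WT values ran from 177.1 over a median of 255.5 to 375.5, and late WT values were 218.2 and 206.2 in mouse 1 and 303.6 and 242.0 in mouse 2. Early Tnfr2-/- values ran from 258.3 over 284.4 to 381.9, and late ones were 303.6, 227.0, 333.6 and 278.9. The time course gave -0.06 in WT (SE 0.188, adjusted p = 0.859) and -0.10 in Tnfr2-/- (adjusted p = 0.766). The difference over all days was 0.26 higher in Tnfr2-/- (SE 0.122, adjusted p = 0.216). WT mouse 1 lay below WT mouse 2 on 4 of 5 days (mean 216.8 against 286.4), and without WT mouse 2 the difference was 0.46 with an adjusted p of 0.0187. Plin3, a related coat protein, was 57.8 to 82.6 early and 86.4 to 111.2 late in WT, with no overlap, and rose by 0.49 (SE 0.0822, adjusted p = 0.0015), against 0.14 in Tnfr2-/- (adjusted p = 0.265). The genes most alike to Plin2 were Cbr4 (r = 0.772), Cstb and Prdx2 (0.755 each).

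**Figure D3:**
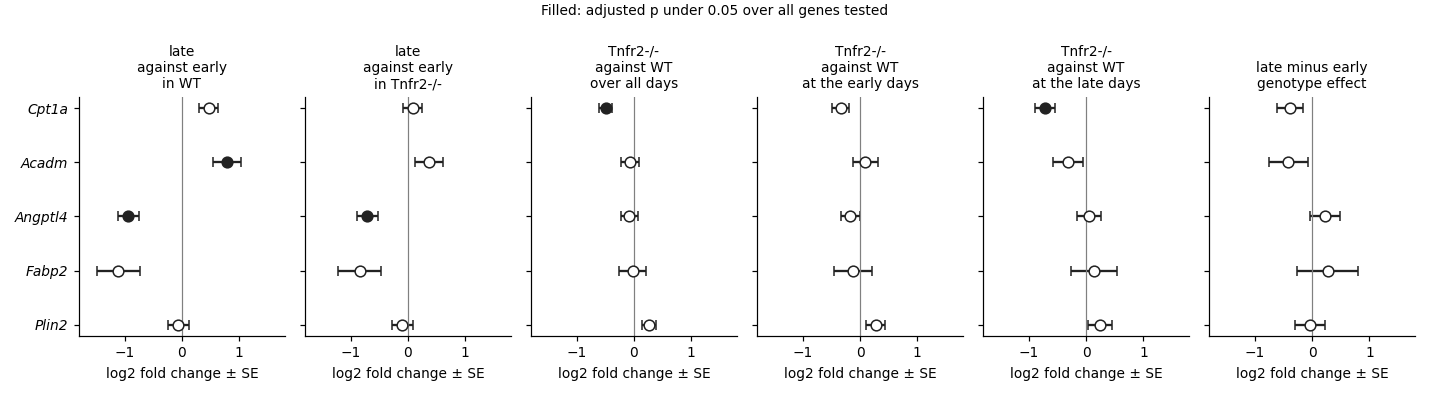
Log2 fold change (horizontal axis, on the log2(level + 1) scale) with its standard error as the bar, for the 5 tested genes in the 6 comparisons. Filled points passed an adjusted p of 0.05, which were Acadm and Angptl4 in WT, Angptl4 in Tnfr2-/- and Cpt1a in the genotype comparisons over all days and at the late days.

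Fabp2 encodes the intestinal fatty acid binding protein (chromosome 3, 122895072 to 122899506, plus strand), which is abundant in enterocytes of the small intestine. It ranged from 0 to 3.30, and 1 TPM of its only transcript corresponded to about 1.54 reads, so that its values rest on single reads. Its early values were 0.585 to 3.23 in WT and 0.623 to 3.30 in Tnfr2-/-. Its late WT values were 0, 0.778, 0 and 0, and its late Tnfr2-/- values were 0.669, 0.561, 0 and 0, so that all 5 libraries listed at 0 were late ones. Fabp2 passed the filter through its early libraries, and its differences, -1.11 in WT (SE 0.374, adjusted p = 0.0511) and -0.84 in Tnfr2-/- (adjusted p = 0.134), did not pass the test. Of 10 markers of small-intestinal enterocytes, 3 had a mean of 1 or more and Apoc3 was at 0, and their sum was 5.14 to 24.9 in early and 28.8 to 52.9 in late WT libraries. All 3 tested markers (Anpep, Rbp2 and Slc5a1) rose in WT, where 11.6% of all genes did, and Slc5a1 alone rose in Tnfr2-/-. There, Anpep averaged 14.4 early and 12.3 late. The genes most alike to Fabp2 were Eif2b5, Cdk11b and Snrpd2 (r = 0.769 to 0.784).

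Fabp1, the liver-type binding protein gene (chromosome 6, 71199827 to 71205023, plus strand), was listed at 0 in all 20 libraries. Ppara itself (chromosome 15, 85734983 to 85802819, plus strand) lay between 0 and 0.714 in WT. In Tnfr2-/- it was 0, 0, 0.575, 0.550 and 0.231 in mouse 1 (1 to 7 DPP) and 1.03, 0.148, 3.02, 0.526 and 0.946 in mouse 2. The highest value came with 2.73 TPM of a 360-base noncoding transcript, which is worth about 1 read. Pdk4, which encodes a kinase that blocks pyruvate entry to the citric acid cycle (chromosome 6, 5483351 to 5496309, minus strand), was at 1 or more in 2 libraries only, 1.49 at 1 DPP of WT mouse 1 and 2.71 at 5 DPP of WT mouse 2, and was listed at 0 in 7. When genes of any level above 0 were fitted, neither Ppara nor Pdk4 passed in a comparison (lowest adjusted p = 0.506 for Pdk4 at the late days). The libraries held about 2.21 reads of Ppara and 1.04 of Pdk4 on average.

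Of the relatives of these low genes, Fabp7 was listed at 0 in all 20 libraries. Pparg was 21.6 to 35.6 early and 33.4 to 95.6 late in WT and rose in WT (1.11, SE 0.225, adjusted p = 0.0046) and in Tnfr2-/- (0.72, SE 0.225, adjusted p = 0.0371). The WT rise held in 21 of 24 fits that left out a library or a mouse and was 0.65 (adjusted p = 0.0713) without WT mouse 1, and with only the 10 WT libraries in the fit it did not pass (0.0506). The Tnfr2-/- rise held in 13 of 24, with an adjusted p of 0.5275 without Tnfr2-/- mouse 1, and did not pass with no filter on low values (0.0692) or with libraries brought to the same total (0.0529). Ppard, the receptor found in most tissues, averaged 46.5 to 58.9 over the 4 groups of genotype and stage and did not pass (-0.23 in WT, adjusted p = 0.221, and -0.33 in Tnfr2-/-, adjusted p = 0.0839). The Tnfr2-/- value passed with libraries brought to the same total (-0.42, adjusted p = 0.0301), with length-weighted sums (-0.51, adjusted p = 0.00589) and in 2 of 24 fits that left out a library or a mouse. Pdk1 and Pdk2 encode kinases of the same enzyme complex as Pdk4. Pdk1 rose from a mean of 23.5 to 61.2 in WT (1.43, SE 0.184, adjusted p = 0.000318) and from 36.3 to 66.0 in Tnfr2-/- (0.93, adjusted p = 0.00369), where the call was lost without Tnfr2-/- mouse 1 (adjusted p = 0.273) or mouse 2 (0.1845).

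Pdk2 rose in WT, from 0.907 to 8.24 early to 6.56 to 16.7 late (1.59, SE 0.247, adjusted p = 0.000996), but not by the test in Tnfr2-/- (0.35, adjusted p = 0.364). Its WT value ran from 0.90 to 1.99 across other settings. The Pdk2 courses of the genotypes did not differ after adjustment (-1.24, adjusted p = 0.19), although they did without WT mouse 2 at 5 DPP (-1.54, adjusted p = 0.0379). The late genotype difference of Pdk2 (-0.60, adjusted p = 0.207) passed without that library (-0.91, adjusted p = 0.0351) and without WT mouse 2 (-1.07, adjusted p = 0.0202). Pdk3 did not pass within either genotype (-0.17 and -0.08, adjusted p = 0.756 and 0.8995). Fabp5, the epidermal binding protein gene, was the Fabp gene with the highest level, at 35.6 to 357.9 over all libraries. It fell in both genotypes (-0.88, adjusted p = 0.0117, held in 20 of 24 fits that left out a library or a mouse, and -1.05, adjusted p = 0.00416, held in 22 of 24) and was higher in Tnfr2-/- over all days (0.61, SE 0.140, adjusted p = 0.0135). The WT fall did not pass without WT mouse 1 at 5 DPP (-0.60) or 7 DPP (-0.76), or with only the 10 WT libraries (adjusted p = 0.078, limma). It also did not pass without either Tnfr2-/- mouse, where the WT value stayed at -0.88 and only the shared spread changed. The Tnfr2-/- fall did not pass without mouse 1 (-0.91) or mouse 2 (-1.19). The genotype difference was 0.29 without WT mouse 1 (adjusted p = 0.192), 0.53 without Tnfr2-/- mouse 1 (0.201) and 0.69 without Tnfr2-/- mouse 2 (0.1215), and means per mouse gave an adjusted p of 0.436. Fabp6 was listed above 0 in a single library (1.99 at 1 DPP of WT mouse 1).

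**Figure D4:**
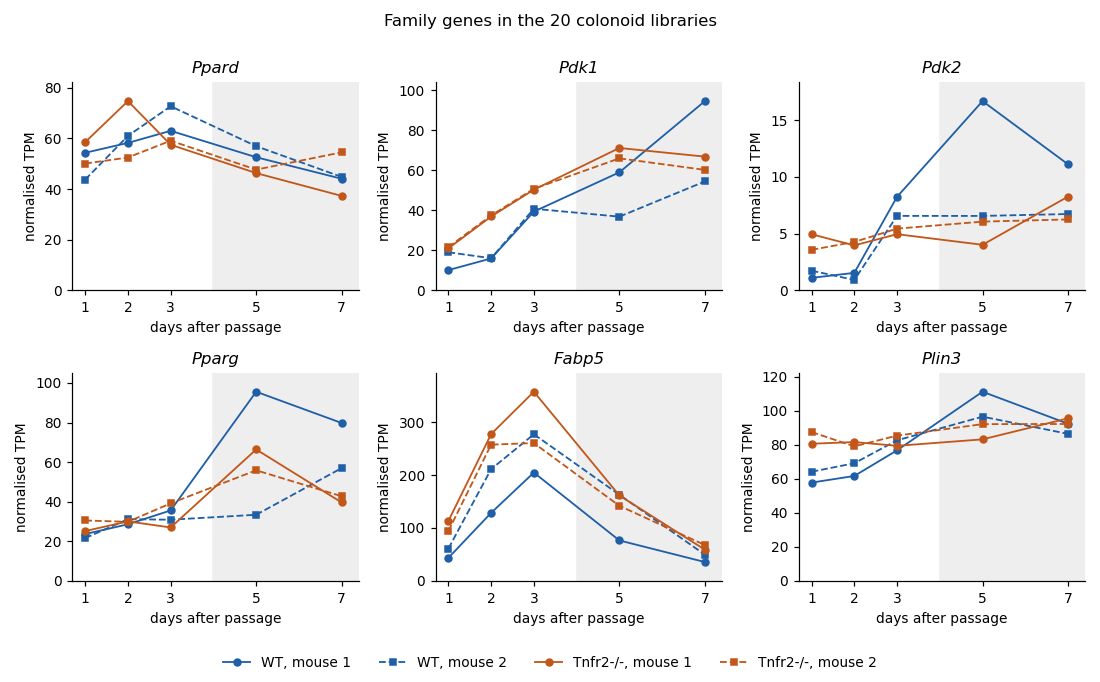
Level of 6 relatives of the 8 genes (normalised TPM, linear axis from 0, scaled per gene) against days after passage, with 1 line per mouse (blue for WT, orange for Tnfr2-/-) and late days shaded. Pdk1 is higher at 7 than at 1 DPP in all 4 mice, reaching 94.6 in WT mouse 1, and Fabp5 has its highest value of each mouse at 3 DPP.

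Of the wider pathway, read from 9 lists of genes, more members were called in WT than in Tnfr2-/- over time. The difference between the genotypes' courses, however, passed for no list gene with all libraries in the fit. Of all genes tested, 11.6% rose and 8.52% fell in WT, and 10.4% rose and 9.93% fell in Tnfr2-/-. Of 20 mitochondrial beta-oxidation genes, 6 rose in WT and none fell, with a median change of 0.41, and 4 rose in Tnfr2-/- (median 0.10), where the medians of all genes tested were 0.02 in both. Among the called genes, the 3 largest in WT were Slc25a20, which carries acylcarnitines across the inner membrane (0.83, adjusted p = 0.00837), Hadh (0.68, adjusted p = 0.0443, held in 4 of 24 fits that left out a library or a mouse) and Acads (0.67, adjusted p = 0.0115). In Tnfr2-/- the 3 largest of the called genes were Acadl (0.86, adjusted p = 0.00436), Slc25a20 (0.70, adjusted p = 0.0197) and Etfdh (0.43, adjusted p = 0.015). Of 9 tested peroxisomal genes, 5 rose in WT (median 0.40) and 1 in Tnfr2-/- (median 0.16). Of those WT calls, Hsd17b4 held in 8 and Decr2 in 13 of 24 fits that left out a library or a mouse. The largest among the called genes in WT was Abcd3, which encodes a transporter of the peroxisomal membrane (0.62, adjusted p = 0.0045). Abcd3 was also the gene that rose in Tnfr2-/- (0.42, adjusted p = 0.032, held in 15 of 24).

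Of 13 PPAR receptors and partners, 5 rose in WT and 1 in Tnfr2-/-, beside 11.6% and 10.4% of all genes. These shares also apply to the lists that follow. The largest called change in WT was that of Creb3l3 (2.01, adjusted p = 0.00703). Its value ran from 1.19 to 2.55 across 10 other settings, and the call held in 9 of them. The coactivator gene Ppargc1a is counted among the 5, but it passed the filter through its late libraries (mean 0.789 in early and 5.52 in late WT), and its fold of 1.85 ran from 0.84 to 2.88 across settings. Of 10 tested genes among the other PPAR targets, Txnip and Ucp2 rose in WT, while Txnip (1.37, adjusted p = 9.81e-05) and Hilpda (0.60) rose and Tsc22d3 fell (-0.37) in Tnfr2-/-. Of 24 fits that left out a library or a mouse, the Tnfr2-/- calls held in 22 for Txnip, 20 for Tsc22d3 and 20 for Hilpda, whose value ran from 0.16 to 1.04. Of 11 tested uptake, binding and activation genes, 3 rose and 2 fell in WT, and 1 rose and 3 fell in Tnfr2-/-. Of 8 tested lipid droplet genes, 3 rose in WT (Dgat2, Lmf1 and Plin3) and none passed in Tnfr2-/- by limma's adjusted p. Those WT calls held in 19, 14 and 23 of the 24 fits, and the Dgat2 value ran from 0.43 to 1.34. Of 12 pyruvate dehydrogenase genes, Pdk1 and Pdk2 rose in WT and Pdk1 rose in Tnfr2-/-. Of 5 tested short-chain fatty acid genes, Acsm3 (1.70, adjusted p = 0.0115), Acss1 and Bsg rose in WT and Bsg rose in Tnfr2-/-, with medians of 0.83 and 0.79. Of 5 ketone genes, none passed in either genotype by limma's adjusted p. Cell type markers also moved over time. In WT, 3 of 8 tested colonocyte markers (median 1.22) and 3 of 6 epithelial markers rose. Of 10 fibroblast markers, 1 rose and 1 fell in WT, and 3 rose in Tnfr2-/-. There, 1 of 8 colonocyte markers (median 0.52) and 2 of 6 epithelial markers rose, and 1 epithelial marker fell. The part of these markers in the list changes was not tested.

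**Figure D5:**
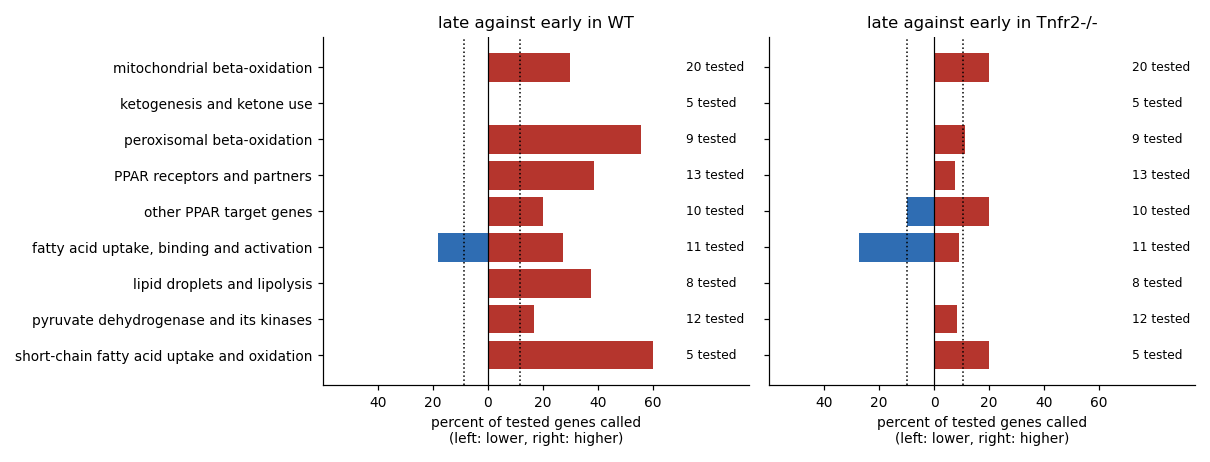
Percent of the tested genes of each list that were called higher (red, to the right) or lower (blue, to the left) at the late days, in WT and in Tnfr2-/-, with the percent of all tested genes as dotted lines (11.6 and 8.52 in WT, 10.4 and 9.93 in Tnfr2-/-). Peroxisomal genes have 5 of 9 called higher in WT and 1 of 9 in Tnfr2-/-, and the number tested stands beside each bar.

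Between the genotypes, 2 of 5 ketone genes were lower in Tnfr2-/- at the late days, beside 2.64% of all genes. They were Oxct1, which encodes the enzyme that lets cells use ketone bodies (123.6 to 192.5 in late WT and 82.4 to 102.3 in late Tnfr2-/-, -0.64, SE 0.111, adjusted p = 0.00557) and Bdh1, which interconverts the ketone bodies (-0.85, adjusted p = 0.0497, held in 4 of 24 fits that left out a library or a mouse). None of the 20 mitochondrial and 9 peroxisomal genes passed late by limma's adjusted p, although 18 and 7 of them had a negative sign (medians -0.20 and -0.22, against -0.05 over all genes). Ucp2 (-0.79, adjusted p = 0.00758), Slc25a42 (-1.01, adjusted p = 0.0433), Tsc22d3 (-0.43, adjusted p = 0.0285), Got2 (-0.35, adjusted p = 0.0395) and Rxra (-0.49, adjusted p = 0.0301) were lower, and Fabp4 (1.90, adjusted p = 0.0207), Acsl4 (1.17, adjusted p = 0.00806) and Hilpda (0.71, adjusted p = 0.0273) were higher in late Tnfr2-/- cultures. Tsc22d3, which is not among the 3 largest of its list, was named after its value was seen. Of the 24 fits that left out a library or a mouse, Slc25a42 held in 7, Got2 in 10, Rxra in 15, Hilpda in 16, Fabp4 in 17, Acsl4 in 21, and Ucp2 and Oxct1 in 22 each. With the mean of each mouse as the unit, 2 against 2, no gene passed late by limma's adjusted p. Fabp4 averaged 1.07 in late WT libraries (0 to 2.63), and its late difference ran from 0.89 to 3.10 across other settings. At the early days no gene of the 9 lists passed by limma's adjusted p, where 1.2% of all genes did.

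Markers of other cell types were read in the same libraries. Of 8 adipocyte markers, 4 had a mean of 1 or more (Cidec, Lipe, Fabp4 and Cidea) and Lep was at 0. The summed level of the 8 was 8.36 to 16.5 in late WT and 11.6 to 26.9 in late Tnfr2-/- libraries, all 4 had a positive sign (median 0.35), and Fabp4, itself one of them, passed. Of 8 immune markers, 3 had a mean of 1 or more, and the summed level of the 8 was 11.5 to 21.03 in late WT and 26.1 to 50.9 in late Tnfr2-/- libraries, which did not overlap. All 3 had a positive sign late (median 0.53), and Cd68, which encodes a macrophage glycoprotein, passed, with a mean of 11.97 in WT and 32.2 in Tnfr2-/-. Over all libraries Cd68 averaged 17.6, Csf1r 3.27 and Lyz2 1.53, so that the sum was mostly Cd68. Ptprc, Cd3e, Cd79a, Itgam and Adgre1 averaged 0.0075 to 0.20. Itgam averaged 0.074 in late Tnfr2-/- and 0.135 in late WT libraries. The 5 tested members, the lists and the markers share the same libraries, and the summed fibroblast markers stood higher in late Tnfr2-/- (median 6543) than in late WT (median 2581). Of the 10 fibroblast markers, Dcn and Vim were called higher, beside 3.8% of all genes. The part of the fibroblast, adipocyte and immune markers in these differences was not tested.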

How the data were processed

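The deposited table held 1 signal value per transcript and library, which the authors made with kallisto and sleuth on mm10 from stranded single-end mRNA reads as TPM divided by a size factor. Library sums were 900655 to 1111080. It also held a pooled natural log mean of estimated counts from the authors, used here only to judge reads per TPM, and the authors' own test columns, which were not used. Of 113974 lines, 781 repeats were dropped, and the 113193 transcripts were added up per symbol (199 had none, at most 0.0989% of a library). Symbols with a mean of at least 1 (13539) were tested on log2(value + 1) in limma 3.58.1 under R 4.3.3, with the variance prior following the mean and p-values adjusted by Benjamini-Hochberg over all of them. Read depth per library was not given in the table, and 13007 to 13469 symbols per library reached 1. The series' design text gives 2 mice per genotype, so the replicate number was read as the mouse. The library labels carry M1 or M2 on every day, in step with that number, and M was taken to mean mouse. Within WT, deviations of the same mouse on different days correlated at r = 0.0998 to 0.307 (10 pairs of days), and within Tnfr2-/- at -0.051 to 0.080. P-values that treat the libraries of a mouse as separate samples measure partly the spread within mice. Named list genes were the 3 called genes of each list with the largest change in a comparison, together with relatives of the 8 genes. Members and lists were chosen with earlier results of these data known. The fits were also run on simulated data with independent noise per library and no mouse effect. Such data cannot show the effect of having only 2 mice per genotype. Alternatives covered the pseudocount, filter, scaling, trend, mouse block, mouse means and omission of each library and mouse, and 2 chosen after seeing the data (sums weighted by length, and the longest coding transcript alone). Some genes of the lists are not reported here and were left out of the list counts.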

Additional observations from a re-analysis of the deposited data

Results flagged for a closer look

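Both results set apart here concern Fabp2, at levels worth a few reads. In late WT cultures Fabp2 was 0.778 at 7 DPP of mouse 1 and 0 in the other 3 libraries, so that about 1 read sets this library apart from 3 at exactly 0. In early Tnfr2-/- cultures Fabp2 was 3.30 at 2 DPP of mouse 1, above the other 5 libraries (0.623 to 1.32). In all, 20 groups were examined, and chance sets apart about 1 group in 20.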

How the results depend on the processing

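Of 305 fold changes of the 5 tested members under other settings, 288 kept their direction and their side of the threshold, and of 720 that left out a library or a mouse, 638 did. For the other named genes these were 522 of 573 and 1109 of 1368. Most of the member values had not passed in the main fit, so these tallies say little about the calls. Of 24 leave-outs each, the call was lost in 10 for Acadm in WT and in 9 for Cpt1a late. It was lost in 6 for Angptl4 in Tnfr2-/-, in 3 for Cpt1a over all days and in 0 for Angptl4 in WT. The limits are the 2 mice per genotype and, for Fabp2, Ppara and Pdk4, a depth of a few reads. The cause of the changes that follow was not tested.

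In WT over time, 2 members passed. Fabp2 made it 3 with a pseudocount of 0.1, the same library total or no mean-variance trend. In none of the counts given here is Fabp2 read as a call, since it entered through its early libraries. Its value was -3.12 with a pseudocount of 0.1 and -0.35 with 5. The count was 1 with no filter, with only the 10 libraries of the genotype (1058 of all genes called) and with the longest coding transcript, and 4 with length-weighted sums (4036 of all genes) and with mouse as a replicate block (Cpt1a, Acadm, Angptl4 and Fabp2), and 1 to 3 with a library or mouse left out. In Tnfr2-/- it was 1, with 0 for the longest coding transcript and 0 to 1 in the leave-outs. The block changed no other member's call. Between genotypes it entered as a correlation within the mouse, where Cpt1a had an adjusted p of 0.0291 over all days and 0.0299 late, against 0.409 and 0.337 with means per mouse. Means per mouse called 0 members over all days, where 7 genes in all passed, and 0 late, where no gene passed by limma and 1896 had an unadjusted p under 0.05. Leave-outs called 0 to 2 over all days (2 without WT 2 DPP mouse 2 or WT mouse 2, which added Plin2) and 0 to 1 late, and none at the early days or for the late minus early genotype effect.

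Directions turned in values that had not passed. With the same library total, Cpt1a in Tnfr2-/- over time was -0.0010 and Angptl4 between genotypes late was -0.021, and the latter was -0.37 with the longest coding transcript. Cpt1b in Tnfr2-/- was -0.30 with length-weighted sums, and Fabp2 over all days was 0.14 with a pseudocount of 0.1. Leave-outs ranged from -0.24 to 0.12 for Plin2 and -0.42 to 0.075 for Pdk3 in WT over time. In Tnfr2-/- they ranged from -0.059 to 0.23 for Cpt1a, -0.53 to 1.52 for Cpt1b (-0.26 to 1.24 for single libraries) and -0.45 to 0.29 for Pdk3. Over all days the ranges were -0.34 to 0.20 for Acadm (0.20 without WT mouse 1, 0.034 without Tnfr2-/- mouse 1 and -0.16 to 0.028 for single libraries), -0.24 to 0.073 for Angptl4 and -0.27 to 0.22 for Fabp2 (0.052 without WT mouse 1 and -0.14 to 0.083 for single libraries). At the early days they were -0.13 to 0.32 for Acadm (-0.095 without WT mouse 2 and -0.096 to 0.28 for single libraries) and -0.37 to 0.11 for Fabp2 (0.043 without Tnfr2-/- mouse 2). Late they were -0.72 to 0.070 for Acadm, -0.19 to 0.30 for Angptl4 (-0.055 without Tnfr2-/- mouse 1) and -0.21 to 0.48 for Fabp2 (-0.0695 without WT mouse 2 and up to 0.35 for single libraries). For the late minus early effect they were -0.016 to 0.47 for Angptl4 and -0.22 to 0.14 for Plin2 (0.0016 without WT mouse 1 and 0.030 without Tnfr2-/- mouse 1).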
